A study of Mus musculus with 6 samples.

Results

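The genes described here are a set of 40 heat shock and unfolded protein response genes, the chaperones and stress regulators with which a cell keeps its proteins folded. A feature of the array was taken as a member when its annotated symbol was exactly one of the 40. The rule found 46 features of 37 genes, out of 34760 features and 19937 genes with a symbol of their own. Of the genes found, 30 had 1 feature and 7 had several. Hsf1, Hspa1b and Hsp90ab1 had no feature by this rule and were not analysed here. All 46 features lay at or above the filter on low values, a mean log2 intensity of 6.70, so each was tested in each comparison.

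Transcript levels were measured on 6 single-colour arrays of mouse embryonic stem cells of strain C57Bl/6. All groups, the controls included, carried the chimeric receptor GRgp-Y118F as a stable transgene, which carries the outside of the receptor for granulocyte colony-stimulating factor (GCSF) on the inside of gp130. Added GCSF then signals as gp130 does, through the transcription factor STAT3, and Y118F is a change meant to uncouple it from ERK. The 6 arrays were 2 of untreated control cells, 2 with the label GCSF and 2 with the label LIF/PD, which stands for leukaemia inhibitory factor (LIF) plus 1 uM of PD0325901, a MEK inhibitor. After 6 h in serum-free medium, treatment lasted 1 h. The sources used here do not give the serum state of the controls, the promoter of the transgene, whether the line is 1 clone, or whether the arrays within a group had separate cultures behind them. The p-values therefore measure the spread between these arrays, which may be technical.

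Heat shock factors bind arrays of inverted nGAAn units in front of chaperone genes and switch them on when unfolded proteins draw chaperones away. In the endoplasmic reticulum (ER) the sensors IRE1, ATF6 and PERK respond to unfolded proteins. IRE1 splices the Xbp1 transcript, ATF6 is cut to release a transcription factor, and PERK phosphorylates eIF2alpha, which slows translation but favours ATF4. Embryonic stem cells are known for high constitutive chaperone levels. Splicing of Xbp1, cleavage of ATF6 and phosphorylation of eIF2alpha cannot be read from the array.

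Transcripts that check the labels come first. Socs3, a feedback inhibitor and direct target of STAT3, read 7.77 and 7.73 log2 intensity on its brighter feature in control cells, 10.79 and 10.98 under GCSF, and 10.42 and 10.32 under LIF/PD. Dusp6, an ERK phosphatase gene that falls when MEK is inhibited, read 10.47 and 10.52 in control cells, 8.93 and 8.94 under GCSF, and 10.51 and 10.54 under LIF/PD. The low Dusp6 lies in the group whose label names no MEK inhibitor, and Spry4 showed the same order (control mean 10.00, GCSF 8.17, LIF/PD 10.05). This goes against the labels of the treated groups, which were kept as given, and every direction below holds for the arrays that carry the label. All 8 embryonic stem cell markers examined were above the filter, and their summed intensity was 15.39 to 15.42 in the controls, 15.43 to 15.44 under GCSF and 15.43 to 15.46 under LIF/PD on the log2 scale. Summed markers of other cells were bright in some lists, where the brightest genes weigh most. Control means of tested fibroblast markers ran from 8.97 (Col3a1) to 10.82 (Col1a1). Those of primitive endoderm ran from 6.99 (Gata4), near the filter, to 12.94 (Sparc), and those of trophoblast from 6.96 (Cdx2) to 9.24 (Tfap2c). Summed feeder fibroblast markers, 6 of 7 above the filter, were at 12.65 to 12.66 in each group. Summed primitive endoderm markers, 5 of 7 above it, were at 13.11 to 13.12, 13.12 to 13.13 and 13.10 to 13.12 in the same order. Summed trophoblast markers, of which 4 of 5 lay above the filter, were at 10.47 to 10.49, 10.77 to 10.78 and 10.66 to 10.68 in the same order, and summed neuroectoderm markers, 4 of 4 above it, at 9.86 to 9.88, 10.02 to 10.06 and 10.00 to 10.01. Of 3 mesoderm markers 1 lay above the filter. Their sum was 8.04 to 8.14, 7.98 to 8.04 and 7.97 to 8.07 in the same order. The marker lists did not move as wholes. Under GCSF, Tfap2c rose by 0.74 ± 0.06 (adjusted p = 0.000446, limma, n = 2 arrays per group), while Hand1 (-0.23), Eomes (-0.18) and Cdx2 (0.03) did not pass. Likewise Pax6 rose by 0.54 ± 0.07 (adjusted p = 0.00715), while Neurog1 (0.28), Sox1 (-0.06) and Nes (-0.03) did not pass. One marker in each of 3 further lists also rose under GCSF, Tdgf1 of stem cells (0.30), Col3a1 of fibroblasts (0.29) and Lama1 of primitive endoderm (0.43). The other tested members of these lists did not pass against control. They lay from -0.16 (Utf1) to 0.10 (Sox2) for stem cells and from -0.10 (Thy1) to 0.02 (Col1a2) for fibroblasts. Those of primitive endoderm lay from -0.02 (Sparc) to 0.06 (Gata4). Utf1 was lower under GCSF than under LIF/PD (-0.23, adjusted p = 0.0137 with limma). None of the markers passed in the comparison of LIF/PD with control. The part of these shifts in the results below was not tested.

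By its labels, the comparison of GCSF with control addresses the response to the chimeric receptor, a reading that the Dusp6 and Spry4 values above limit. The J-domain co-chaperone gene Dnajb4 rose 1.64-fold, and no other member passed the threshold of an adjusted p under 0.05 with limma. The stress pseudokinase gene Trib3 lay just outside it, and the mitochondrial chaperonin gene Hspd1 was higher by about the same amount on both of its features. The major chaperones of the cytosol and of the ER, Hspa8, Hsp90aa1, Hspa5 and Hsp90b1, differed from control by at most 0.06. So 1 of 46 member features was higher and 0 were lower, against 0.804% and 0.367% of all 16912 features tested. At an unadjusted p under 0.05 with limma, 9 were higher and 1 was lower, against 7.04% and 5.07% of all features. The median difference of the members was 0.04 log2 and that of all features 0.01, and 37 of the 46 were above 0, against 53.7% of all features. In 21 members both GCSF arrays lay above both controls and in 2 both lay below, against 23.7% and 18.2% of all features.

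**Figure D1:**
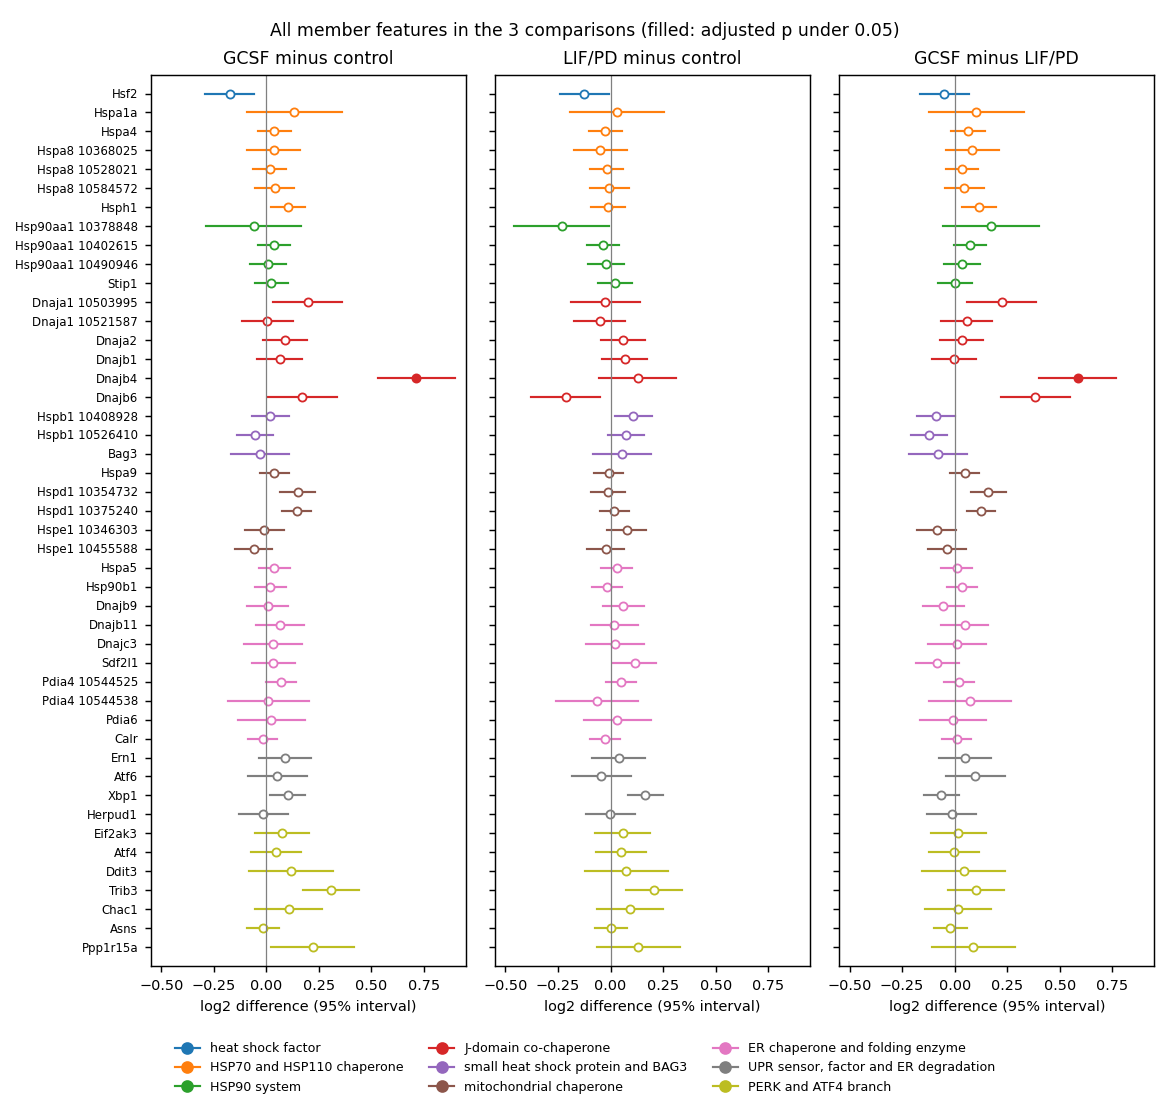
Log2 difference (x axis) of each of the 46 member features (rows, coloured by role, with the feature number where a gene has several) in the 3 comparisons, with the 95% interval of the fit as a line. Filled circles passed an adjusted p under 0.05: Dnajb4 in the comparisons of GCSF with control (0.71) and of GCSF with LIF/PD (0.58), and none in that of LIF/PD with control.

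Dnajb4 encodes an HSP40 protein, a J-domain partner that hands clients to HSP70 and stimulates its ATPase. Its feature read 8.33 and 8.32 log2 intensity in the controls, 9.07 and 9.01 under GCSF, and 8.58 and 8.33 under LIF/PD. The GCSF arrays lay far above all others, and the LIF/PD arrays overlapped the controls. The difference from control was 0.71 ± 0.08 (SE, n = 2 arrays per group; adjusted p = 0.00333 with limma), a size exceeded in either direction by few features, since 99.8% had a smaller one. The call held in all 18 alternatives (adjusted p from 0.000157 to 0.0424), including those without each array in turn.

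RefSeq (GRCm38.p6) gives start windows, 250 bases before to 50 after an annotated start, for 34 of the 40 genes, 41 windows in all. Dnajb4 has a pair of windows, and the one printed here (chr3:152193796-152194095, minus strand) is the one with a match to a pair of heat shock units, TTCNNGAA, 14 bases before the start. Its fixed letters are in capitals, and the sequence is shown because Dnajb4 is the member that rose.
Dnajb4: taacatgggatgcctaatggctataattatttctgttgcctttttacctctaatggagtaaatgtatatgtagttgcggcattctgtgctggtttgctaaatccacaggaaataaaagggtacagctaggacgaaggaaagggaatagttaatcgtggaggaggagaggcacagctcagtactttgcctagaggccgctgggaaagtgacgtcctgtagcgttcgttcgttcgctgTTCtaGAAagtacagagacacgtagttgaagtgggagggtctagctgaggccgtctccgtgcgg

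Searched on both strands, TTCNNGAA occurs in 8.52% of all 32851 windows, so a match to these letters is common. Among members it occurs in 8 of 41 windows, from 6 genes, and those other than Dnajb4 did not pass against control. Neither Dnajb4 window held TTCCNGGAA, the letters of a STAT site (1.15% of all windows), nor the 3-unit heat shock element, which is GAA, 2 free bases, TTC, 2 free bases and GAA. A match is a description of letters, and its absence says nothing about a factor.

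The other J-domain genes differed less. Dnajb6, whose product keeps aggregation-prone proteins soluble, read 7.91 and 7.77 in the controls, 7.96 and 8.06 under GCSF, and 7.61 and 7.64 under LIF/PD. Its 3 groups did not overlap, with GCSF highest and LIF/PD lowest, but neither difference from control passed (0.17 ± 0.07, adjusted p = 0.396, and -0.21 ± 0.07, adjusted p = 0.705, limma, n = 2 arrays per group). Much brighter features shared by Gm4247 and Dnajb6, left out by the rule, did not agree among themselves. They differed from control by -0.19 to 0.11 under GCSF and by -0.25 to 0.08 under LIF/PD. Dnaja1 had features that disagreed, 0.20 ± 0.07 on the dimmer and 0.00 ± 0.05 on the brighter under GCSF, and neither passed. Dnajb1, the co-chaperone most used as a marker of heat shock factor activity, read 9.21 and 9.27 in the controls, 9.28 and 9.34 under GCSF, and 9.31 and 9.32 under LIF/PD, differences of 0.06 and 0.07 that did not pass.

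**Figure D2:**
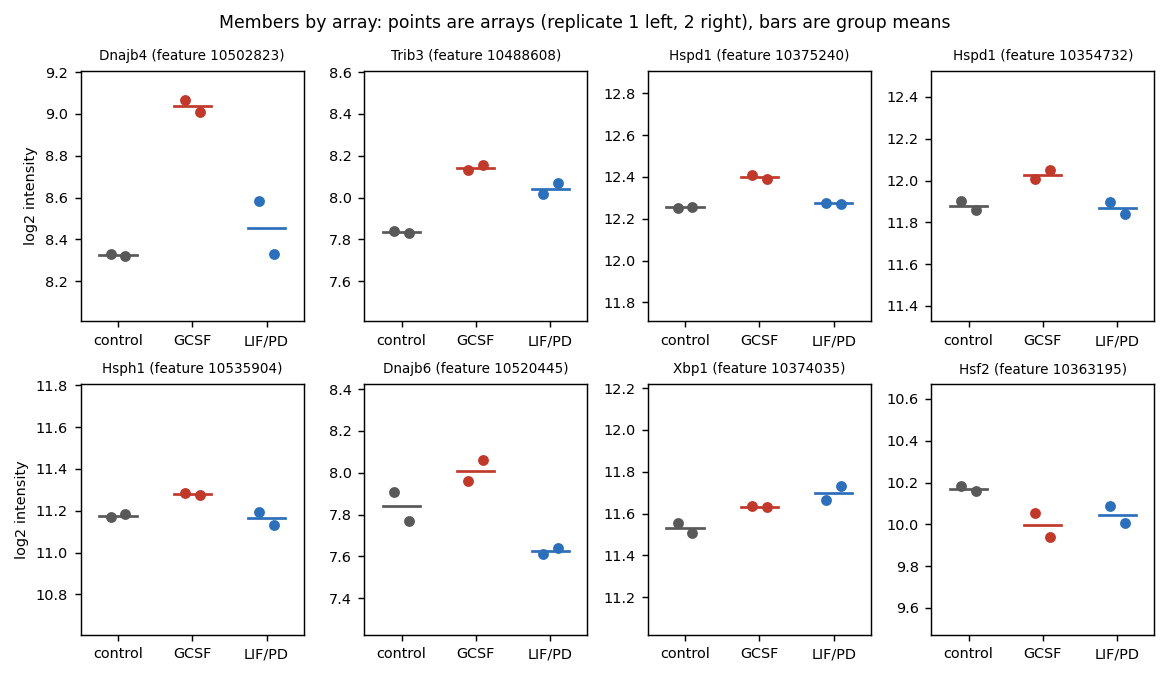
Log2 intensity (y axis, each panel spanning the same range) of 8 member features on each array (points) with the mean of each group of 2 (bars). Dnajb4 stands at 9.01 to 9.07 in the arrays labelled GCSF and at 8.32 to 8.58 elsewhere, while the groups of the other panels lie closer together.

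Among the heat shock factors, Hsf2, whose product acts in development and joins HSF1 on chaperone genes, read 10.18 and 10.16 in the controls, 10.06 and 9.94 under GCSF, and 10.09 and 10.00 under LIF/PD. Both treated groups lay below the controls (-0.17 ± 0.05, adjusted p = 0.210, and -0.12 ± 0.05, adjusted p = 0.736, limma, n = 2 arrays per group), and neither difference passed. Each was taken against the same 2 control arrays.

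The cytosolic HSP70 and HSP90 genes stayed close to control. Hspa1a, the strongly heat-inducible HSP70 gene, read 7.78 and 7.62 in the controls, 7.72 and 7.94 under GCSF, and 7.64 and 7.81 under LIF/PD, so its groups overlapped. Its start window differs from that of Hspa1b at 4 of 300 bases (296 identical), which does not show how alike the probed transcripts are. A feature annotated to both genes is given among the other observations, and the copies may share signal on the array. Hspa8, the constitutive HSP70 gene, had 3 features, which differed from control by 0.02 to 0.04 under GCSF and by -0.05 to -0.01 under LIF/PD. Hsph1, an HSP110 nucleotide exchange factor, read 11.17 and 11.18 in the controls, 11.29 and 11.28 under GCSF, and 11.19 and 11.13 under LIF/PD. Its GCSF arrays lay above all others by a small amount (0.10 ± 0.04 against control, adjusted p = 0.285, limma, n = 2 arrays per group), and the difference did not pass.

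Hsp90aa1, the inducible HSP90 gene, had 2 bright features that differed from control by 0.04 and 0.01 under GCSF and by -0.04 and -0.02 under LIF/PD. Its dimmest feature varied more between arrays of one group, at 12.16 and 11.91 in the controls, 12.11 and 11.84 under GCSF, and 11.87 and 11.74 under LIF/PD. The 3 features of Hspa8 and of Hsp90aa1 carry the same RefSeq transcript in the annotation, and the annotation does not say which genomic copy each one probes. Hspb1, a small heat shock protein gene, differed by 0.02 and -0.05 under GCSF and by 0.11 and 0.07 under LIF/PD on its features, none of which passed.

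The mitochondrial chaperonin genes Hspd1 (HSP60) and Hspe1 (HSP10) encode the barrel and the lid of one folding machine and stand head to head on chromosome 1. Of the Hspe1 window, 285 bases also lie in a Hspd1 window, on the other strand. The whole Hspe1 window is shown because the part it shares with Hspd1 holds 2 overlapping matches to the 3-unit heat shock element, one on each strand, in all 4 inverted units, in capitals (chr1:55087898-55088197, plus strand). These letters occur in 0.603% of all windows.
Hspe1: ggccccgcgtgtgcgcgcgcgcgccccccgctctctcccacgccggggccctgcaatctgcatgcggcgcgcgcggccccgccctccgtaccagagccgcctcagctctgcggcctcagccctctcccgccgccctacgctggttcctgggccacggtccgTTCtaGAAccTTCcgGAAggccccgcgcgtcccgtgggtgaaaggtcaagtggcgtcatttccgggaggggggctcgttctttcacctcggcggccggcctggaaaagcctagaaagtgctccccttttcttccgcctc

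The brighter Hspd1 feature read 12.25 and 12.26 in the controls, 12.41 and 12.39 under GCSF, and 12.28 and 12.27 under LIF/PD. The dimmer read 11.90 and 11.86, 12.01 and 12.05, and 11.90 and 11.84 in the same order. On both features the GCSF arrays lay above all 4 others, and the differences from control were 0.14 ± 0.03 (adjusted p = 0.0766 with limma) and 0.15 ± 0.04 (adjusted p = 0.130 with limma), with n = 2 arrays per group. Neither passed over all features. With the features of each gene reduced to 1 or averaged, which lowers the number of tests, Hspd1 was called (adjusted p = 0.0245 and 0.0227 with limma). Over the alternatives the brighter feature ranged from 0.0227 to 0.370, the averaged value included, and the dimmer, which was not called in any, from 0.108 to 0.409. Hspe1 was not higher, with differences of -0.01 ± 0.04 and -0.06 ± 0.04 under GCSF. Hspa9, the mitochondrial HSP70 gene, differed by 0.04.

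The 3-unit heat shock element was also found in windows of Dnajb6 and Hsph1, so that 4 of 34 genes with a window held it. The sites are shown for comparison with that of Hspd1 and Hspe1, with the fixed letters in capitals. That of Hsph1 (chr5:149636280-149636308, minus strand) lies after the start and that of Dnajb6 (chr5:29735844-29735872, plus strand) before it.
Dnajb6: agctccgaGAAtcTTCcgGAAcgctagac
Hsph1: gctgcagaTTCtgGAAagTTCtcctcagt

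The 6 features of these 4 genes differed from control by -0.06 to 0.17 under GCSF, with a median of 0.12. Of these features 4, both of Hspd1 and those of Hsph1 and Dnajb6, had an unadjusted p under 0.05 with limma, against 12.1% of all features. Under LIF/PD the 6 features differed by -0.21 to 0.08, with a median of -0.01. Of them 1 had an unadjusted p under 0.05 with limma, against 6.59% of all features. None passed in either comparison, and a link between the element and these differences was not tested.

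In the ER, no folding gene passed. The 10 features of 9 genes differed from control by -0.02 to 0.07 under GCSF and by -0.06 to 0.12 under LIF/PD. Hspa5, which encodes the master ER chaperone BiP, read 12.20 and 12.23 in the controls, 12.25 and 12.25 under GCSF, and 12.26 and 12.22 under LIF/PD. The 95% interval of its difference under GCSF ran from -0.04 to 0.11. Hsp90b1, the ER form of HSP90, differed by 0.02 ± 0.03 and -0.02 ± 0.03, and Dnajb9, a J-domain gene induced through spliced Xbp1, by 0.01 ± 0.04 and 0.06 ± 0.04 (SE, n = 2 arrays per group, GCSF first). Sdf2l1, which encodes an ER stress-inducible partner of the BiP system, read 9.045 and 9.005 in the controls, 9.06 and 9.06 under GCSF, and 9.14 and 9.14 under LIF/PD. Its LIF/PD arrays lay above all others, by 0.12 ± 0.04 against control (adjusted p = 0.719 with limma, n = 2 arrays per group).

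Promoters of ER chaperone genes carry the ER stress response element, to which ATF6 and XBP1 bind with the factor NF-Y. Its letters, CCAAT and CCACG with 9 free bases between them on either strand, were found in windows of Hspa5, Calr, Hsp90b1, Pdia6 and Dnajc3, and in 0.119% of all windows. The related element, ATTGG and CCACG with 1 free base between them, was found in those of Herpud1 and Dnajb11, and in 0.0365% of all. Neither overlaps the other in these windows. The sites below are shown because genes with this element are the textbook targets of ER stress factors, with the fixed letters in capitals and 8 bases on each side, in the direction of the gene. Hsp90b1 holds 2.
Hspa5: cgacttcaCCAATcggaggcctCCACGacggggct
Calr: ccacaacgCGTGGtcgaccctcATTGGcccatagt
Hsp90b1: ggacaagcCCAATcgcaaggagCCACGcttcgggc
Hsp90b1: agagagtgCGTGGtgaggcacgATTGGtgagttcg
Pdia6: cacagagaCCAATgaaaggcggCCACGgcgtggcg
Dnajc3: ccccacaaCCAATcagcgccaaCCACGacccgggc
Herpud1: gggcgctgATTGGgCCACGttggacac
Dnajb11: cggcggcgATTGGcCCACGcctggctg

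They lie at chr2:34772017-34772051 for Hspa5, chr8:84847067-84847101 for Calr, chr10:86705630-86705664 and chr10:86705525-86705559 for Hsp90b1, chr12:17266483-17266517 for Pdia6, chr14:118937819-118937853 for Dnajc3, chr8:94386369-94386395 for Herpud1 and chr16:22857844-22857870 for Dnajb11. These 7 genes, each with 1 feature, differed from control by -0.02 to 0.06 under GCSF and by -0.03 to 0.03 under LIF/PD. Their 95% intervals all lay within -0.13 to 0.18 under GCSF and -0.13 to 0.19 under LIF/PD.

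**Figure D3:**
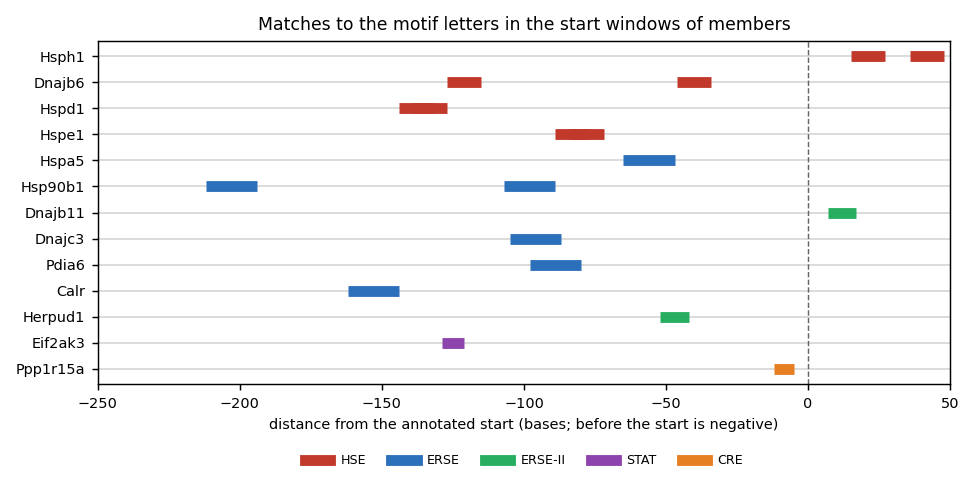
Matches to the motif letters (coloured bars) by distance in bases from the annotated start (x axis, dashed line at the start) in windows of 13 members. The heat shock element (HSE) of Hsph1 and of Dnajb6 is a single site each, drawn at 2 places because these genes have 2 annotated starts, and the ER stress elements (ERSE and ERSE-II) lie within 212 bases before the start except that of Dnajb11.

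Among the UPR sensors and factors, Xbp1, the transcript that IRE1 splices, read 11.56 and 11.51 in the controls, 11.63 and 11.63 under GCSF, and 11.66 and 11.73 under LIF/PD. Both treated groups lay above both controls, which are the same 2 arrays in each comparison. The differences were 0.10 ± 0.04 (adjusted p = 0.315) and 0.17 ± 0.04 (adjusted p = 0.443) with limma and n = 2 arrays per group, and neither passed. The array gives the total Xbp1 transcript, spliced or not. Ern1, the gene of IRE1, differed by 0.09 ± 0.05 and 0.04 ± 0.05, Atf6 by 0.05 ± 0.06 and -0.04 ± 0.06, and Herpud1, an ER-associated degradation gene, by -0.02 ± 0.05 and -0.00 ± 0.05, with GCSF first.

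In the PERK and ATF4 branch, Trib3, a target of ATF4 and CHOP that feeds back on both, read 7.84 and 7.83 in the controls, 8.13 and 8.16 under GCSF, and 8.01 and 8.07 under LIF/PD. Both treated groups lay above the controls by more than the spread within any group. The controls are the same 2 arrays in both comparisons, and their serum state is not given. Under GCSF the difference was 0.31 ± 0.06 (adjusted p = 0.0504 with limma, n = 2 arrays per group), just outside the threshold. It passed in 6 of 18 alternatives (0.0174 to 0.0488) and not in the rest (up to 0.259). Under LIF/PD it was 0.21 ± 0.06 (adjusted p = 0.604).

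The factors upstream of Trib3 gave smaller values. Atf4 differed by 0.05 ± 0.05 under each treatment, and its control and GCSF arrays read 8.84, 8.85, 8.89 and 8.90. Ddit3, the gene of CHOP, varied more within the controls (7.34 and 7.54) than between the group means (7.63 and 7.49 under GCSF, 7.49 and 7.55 under LIF/PD). Ppp1r15a (GADD34), which reverses eIF2alpha phosphorylation, read 7.91 and 8.14 in the controls, 8.32 and 8.17 under GCSF, and 8.15 and 8.17 under LIF/PD. Its lowest array was 1 control array, and the differences of 0.22 ± 0.09 and 0.13 ± 0.09 did not pass. Other targets of ATF4 were Chac1, a glutathione-degrading enzyme gene (0.11 ± 0.07 and 0.09 ± 0.07), and Asns, asparagine synthetase (-0.02 ± 0.03 and 0.00 ± 0.03), and Eif2ak3, the gene of PERK, differed by 0.07 ± 0.06 and 0.06 ± 0.06.

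By its labels, the comparison of LIF/PD with control addresses LIF with MEK inhibitor, although Dusp6 and Spry4 were at control level in these arrays. This comparison shares its 2 control arrays with the comparison above. None of the 46 member features passed with limma, against 0.065% of all features (0.0591% higher and 0.00591% lower). At an unadjusted p under 0.05, 4 were higher and 3 lower, against 4.7% and 1.89% of all, and the smallest adjusted p was 0.443 for Xbp1. The median was 0.02, against 0.01 for all features, and 26 of the 46 were above 0, against 57.9% of all. Both LIF/PD arrays lay above both controls in 14 members and below in 6, against 24% and 14.4% of all features. No alternative called a member. Of the members 46 had a 95% interval inside a 1.5-fold change in either direction under LIF/PD, and 45 of 46 under GCSF, where the exception was Dnajb4. Of all 16912 features tested, 16781 and 16699 lay inside it in the same order. Inside a 1.2-fold change lay 40 members under LIF/PD and 36 under GCSF, against 13131 and 12590 of all features. Another 10 genes with 11 features, among them Hspa4, Hspa9, Stip1, Bag3 and Pdia4, differed by -0.03 to 0.09 under GCSF and by -0.06 to 0.06 under LIF/PD, with no unadjusted p under 0.05.

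**Figure D4:**
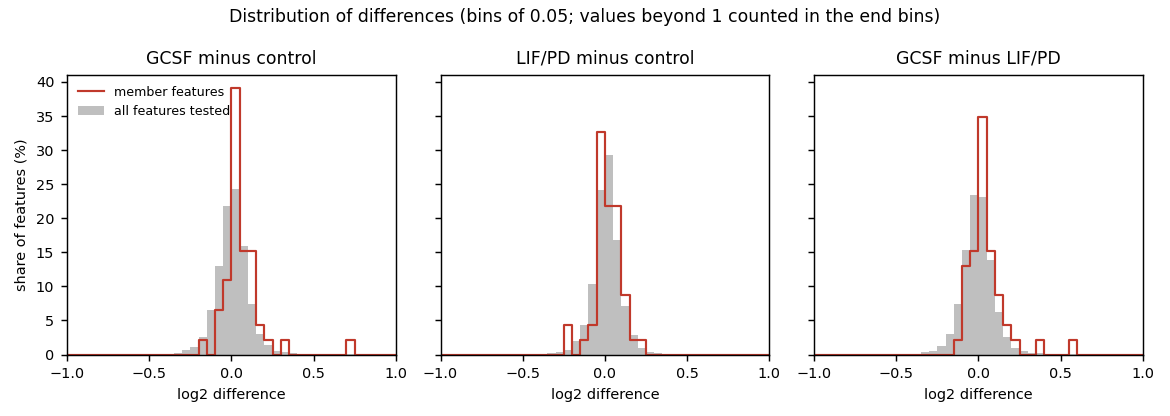
Share of features in percent (y axis) by log2 difference (x axis, bins of 0.05) for all 16912 features tested (grey bars) and the 46 member features (red line) in the 3 comparisons. Both centre near 0, with member medians of 0.04, 0.02 and 0.03, and the member bins farthest to the right under GCSF are those of Trib3 (0.31) and Dnajb4 (0.71).

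The treated groups were compared with each other, which uses no control value other than for the estimate of the spread. Dnajb4 was higher in the arrays labelled GCSF by 0.58 ± 0.08 (adjusted p = 0.0166 with limma, n = 2 arrays per group), and it was the 1 member feature of 46 that passed, against 0.443% of all features higher and 0.402% lower, or 0.846% in all. This call ended without GCSF replicate 1 (0.113), without GCSF replicate 2 (0.0575), without LIF/PD replicate 2 (0.0617), when variances did not follow intensity (0.0548) and with the median of the array's control block as a covariate (0.195), in a range of 0.00133 to 0.195 over all alternatives. That control block median was 6.84 and 6.71 in the GCSF arrays, 6.58 and 6.68 in the LIF/PD arrays and 6.66 and 6.71 in the controls. Dnajb6 was higher under GCSF by 0.38 ± 0.07 (adjusted p = 0.0604 with limma), which did not pass. The much brighter features shared by Gm4247 and Dnajb6, left out by the rule, differed by only 0.04 to 0.06 in this comparison. The features of Hspd1 were higher by 0.16 ± 0.04 and 0.13 ± 0.03 (adjusted p = 0.111 and 0.132) and did not pass. At an unadjusted p under 0.05 with limma 6 members were higher and 1, a feature of Hspb1, was lower, against 4.83% and 6.96% of all features (11.8% in all). Of the 46, 32 were above 0, against 48.1% of all features. Both GCSF arrays lay above both LIF/PD arrays in 13 members and below in 7, against 19.1% and 22.4% of all.

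A wider set of proteostasis genes gives the surroundings of the members. Of these, 108 genes were found on 112 features, 111 of them tested. In the comparison of GCSF with control 1 was higher and 0 lower, against 0.804% and 0.367% of all features, and the median difference was 0.01, as for all features. The gene that rose was Atf3, a stress and immediate early transcription factor gene that ATF4 can induce, at 7.68 and 7.83 in the controls, 8.45 and 8.48 under GCSF, and 7.95 and 7.88 under LIF/PD (0.71 ± 0.07 against control, adjusted p = 0.00175 with limma, n = 2 arrays per group). Atf3 was also higher under GCSF than under LIF/PD, by 0.55 ± 0.07 (adjusted p = 0.0110). Hspb8, a small heat shock protein gene, read 9.55 and 9.58 in the controls, 9.76 and 9.83 under GCSF, and 9.61 and 9.67 under LIF/PD, and did not pass (0.23 ± 0.05, adjusted p = 0.0683). Gpt2, an aminotransferase gene (0.21 ± 0.06), and Eif2ak2, the eIF2alpha kinase gene that double-stranded RNA activates (0.20 ± 0.06), did not pass either. None of the 111 features passed under LIF/PD with limma, against 0.065% of all features, and 3 had an unadjusted p under 0.05, against 6.59% of all. The 4 with the smallest p were those of Selenos (0.26 ± 0.09), Derl2 (0.15 ± 0.06), Atf3 (0.17 ± 0.07) and Atf5 (-0.12 ± 0.06). Of the 43 features of cytosolic and mitochondrial chaperones, the 31 tested of ER chaperones and degradation genes and the 7 of UPR sensors, 0 passed in any comparison with limma, and 4, 1 and 0 had an unadjusted p under 0.05 in that of GCSF with control, 0, 2 and 0 in that of LIF/PD with control, and 5, 1 and 1 between the treatments. Over all features the shares at that p were 12.1%, 6.59% and 11.8%.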

How the data were processed

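The authors deposited 1 table of 34760 features by 6 arrays, read here as log2 intensity because its values lie between 2.29 and 14.5. The sources used here do not give the log base or how the authors corrected background, summarized probes and normalized, so values were taken as deposited. The platform's annotation table gave feature names: 21640 had 1 symbol and 1321 several. A block of 6573 unannotated control features was left out, and the 16912 others whose mean reached the 40th percentile were tested. All 6 arrays entered 1 fit, with a mean for each group, in limma 3.58.1 in R 4.3.3, with an intensity trend (3 residual, 8.4 total degrees of freedom) and two-sided p-values adjusted by Benjamini-Hochberg over all features tested. Errors are standard errors of the fit. With 2 arrays against 2, an exact permutation test cannot go below 0.333. The number of arrays limits the precision. The fit was tested on simulated data. Their noise was independent between arrays, so that test cannot show whether the spread between the real arrays is technical. Alternatives covered the replicate block, arrays in the fit, filter, normalization, variance model, array weights, several features per gene, a control block covariate and each array left out. Members, roles, lists and named genes (called members, the 10 smallest p per comparison and a fixed set) were chosen with earlier results of these data known.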

Additional observations from a re-analysis of the deposited data

How the results depend on the processing

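Member features called in the comparison of GCSF with control numbered 1, and 2 with the 60th percentile filter, median centring, no intensity trend or robust variances, where Trib3 joined Dnajb4. They numbered 3 with 1 value per gene, either the average of its features or the brightest one, where Hspd1 joined too. With each array left out in turn, the count was 1 to 1. Under LIF/PD it was 0 in all alternatives. Between GCSF and LIF/PD it was 1, but 0 without an intensity trend or with the control block covariate, 2 (Dnajb6 added) with the highest mean, 3 (Hspd1 as well) with averaging, and 0 to 1 with an array left out. Over all features the 198 calls of GCSF against control became 125 without an intensity trend, 99 with the covariate and 88 to 164 with an array left out. The 11 of LIF/PD became 1 without a trend, 27 and 24 with the highest mean and averaging, and 1 to 7 with an array left out. The 143 between the treatments became 82 with only the 4 arrays compared, 71 without a trend, 26 with the covariate and 30 to 91 with an array left out. A lone array left in a group was assumed to vary like the other groups. The replicate numbers did not pair the arrays: same-numbered deviations correlated at 0.00712 to 0.099, and with the replicate block 195, 9 and 165 features and 1, 0 and 1 members were called. No called member changed direction. Of 1830 values of single features under alternatives, 1716 stayed on their side of the threshold, those of uncalled features also within 1 SE. Another 98 of uncalled features moved further, 11 became called and 5 were lost.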

Other observations

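A further 7 features name a member together with another gene and were left out by the rule. All 7 were tested and 0 passed with limma in any comparison. The feature shared by Hspa1a and Hspa1b differed from control by 0.05 ± 0.07 under GCSF and by -0.04 ± 0.07 under LIF/PD (SE, n = 2 arrays per group). Of the 3 shared by Gm4247 and Dnajb6, 1 differed by -0.19 ± 0.07 under GCSF and by -0.25 ± 0.07 under LIF/PD, and the others by 0.01 to 0.11 and -0.04 to 0.08.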
